A study of Mus musculus with 2 samples.

Results

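Prehypertrophic chondrocytes are growth plate cells that have left the cell cycle, make Indian hedgehog (Ihh) and have not yet filled up with type X collagen. Here they were taken as single cells with at least 10 unique molecular identifiers (UMIs, each standing for 1 captured mRNA) of Acan, at least 1 each of Col9a1, Col9a2 and Matn3, at least 1 of Ihh, under 1% of their UMIs from Col10a1, and fewer than 3 of the cycle genes Mki67, Top2a, Birc5, Cdk1, Ube2c and Prc1. This rule found 3221 cells, 1486 in the Control library and 1735 in the Dach1OE library, out of 9814 chondrocytes that passed the first 4 of these criteria and 55783 cells kept in all. The members were thus chosen from measured UMI counts, and what the rule used (Ihh, Acan, the collagen IX genes, Matn3, Col10a1 and the cycle genes) is given as a description only.

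The study overexpressed the transcription factor Dach1 in endothelial cells of growing mouse bone and profiled the cells of the bone by BD Rhapsody whole transcriptome sequencing. Control animals carried the Dach1OE +/f allele without Cre, and Dach1OE animals were Apj CreERT2 - Dach1OE +/f, in which Aplnr (Apj), the apelin receptor of endothelial cells, drives a Cre recombinase that tamoxifen switches on. Per the study's methods this line was bred with R26-mT/mG reporter mice, and Cre-negative littermates served as controls. All animals were C57BL/6 mice of postnatal day 30, given tamoxifen in the first days after birth, and cells of the femur and tibia of male and female animals were combined. Per the same methods each library pooled a pair of mice, the epiphysis was detached, the bones were digested with collagenase and crushed, and CD45- and CD117-positive cells were depleted with beads. The Control library held 28720 cells with 143986818 UMIs, and the Dach1OE library held 32028 cells with 166999989. With 1 library per genotype there is no replicate and no test was possible between genotypes, and genotype and library cannot be told apart. The Y-linked and Xist UMIs also differed in share between the libraries, with 664 Xist-only and 507 Y-only members in Control against 644 and 682 in Dach1OE, and the main genotype comparisons are therefore also given within these cells.

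In the growth plate, round resting cells give rise to columns of flat dividing chondrocytes, which stop dividing, become prehypertrophic and then enlarge into hypertrophic cells that mineralize their matrix. IHH secreted by prehypertrophic cells keeps the cells above them dividing and induces parathyroid hormone-related protein (PTHrP, gene Pthlh) near the joint, and PTHrP acting on its receptor PTH1R delays hypertrophy in turn. Cells that receive hedgehog signal through the receptor PTCH1 and the GLI transcription factors, and Ptch1, Gli1 and Hhip are themselves induced by the signal.

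Levels are CPM, the UMIs of a gene per 1000000 UMIs summed over the cells of a class in 1 library, with exact 95% Poisson intervals, and ratios are log2 of CPM with exact conditional intervals. All intervals cover counting error only, since UMIs of a cell are not independent. Chondrocytes were compared in 4 classes, namely the members, Ihh-negative cells (no Ihh UMI, under 1% Col10a1, not cycling), Col10a1-high cells (at least 1% Col10a1, not cycling) and cycling cells. The classes were cut from the same counts as the levels, so differences between classes are descriptions of these cells and carry no test. A gene was counted as higher or lower between classes where CPM differed more than 2-fold in the same direction in both libraries. The members were deeply sampled, with a median of 12941.5 UMIs and 3318.5 genes per cell in Control and 12153 and 3188 in Dach1OE. Ihh-negative cells were shallower, at 8651 and 8287.5 UMIs, so some of them may carry Ihh mRNA that was not captured. The libraries shared 1049 cell barcodes over all cells and 4 among members.

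In the mouse genome GRCm38, Ihh lies at chr1:74945315-74951672 on the minus strand, Panx3 at chr9:37659902-37669235, Smpd3 at chr8:106252548-106337988, both also on the minus strand, and Acan at chr7:79053483-79115099 on the plus strand. Sgms2, the gene with the clearest excess in members over Ihh-negative cells, lies at chr3:131318985-131491411 on the minus strand. The promoter windows of Ihh and Sgms2 are shown because these genes define and lead the class, and because RUNX factors are active in maturing chondrocytes. Each holds 250 bases before and 50 after a start site, 5′ to 3′ on the gene's strand, from RefSeq on GRCm38.p6, with matches of the RUNX core TGTGGT or its reverse complement ACCACA in capitals.
Ihh (chr1:74951623-74951922, minus strand): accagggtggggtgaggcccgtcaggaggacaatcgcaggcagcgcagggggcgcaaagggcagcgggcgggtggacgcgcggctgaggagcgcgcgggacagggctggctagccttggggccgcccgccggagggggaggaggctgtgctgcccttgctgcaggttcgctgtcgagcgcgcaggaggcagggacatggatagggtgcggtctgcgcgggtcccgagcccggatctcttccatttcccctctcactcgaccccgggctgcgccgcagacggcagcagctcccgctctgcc
Sgms2 (chr3:131491394-131491693, minus strand): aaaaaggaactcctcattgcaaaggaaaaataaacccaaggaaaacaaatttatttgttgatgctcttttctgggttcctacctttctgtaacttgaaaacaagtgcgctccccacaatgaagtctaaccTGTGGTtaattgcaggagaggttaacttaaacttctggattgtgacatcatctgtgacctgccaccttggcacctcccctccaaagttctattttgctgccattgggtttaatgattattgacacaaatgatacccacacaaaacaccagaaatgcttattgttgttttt
The Ihh window is GC-rich, at 72.7%, and holds neither form of the core. Sgms2 has 6 windows for its start sites, and the one shown is the only 1 of them that holds the core. It has a GC content of 39% and 1 match, 120 bases before the start site. Of the 4 marker genes and the 10 genes named as most clearly higher in members than in Ihh-negative cells, 6 had a window, and 1 of their 12 windows held the core. The share among all 32851 windows of the same length was 16.8%.

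Members made up 36.2% of the gated chondrocytes in Control (95% Clopper-Pearson interval 34.7 to 37.7, 1486 of 4107) and 30.4% in Dach1OE (29.2 to 31.6, 1735 of 5707). The share was therefore 5.78 percentage points lower in Dach1OE, with a Newcombe interval of 3.89 to 7.68 points. Among cells that had Xist but no Y-linked UMIs, the shares were 33.2% in Control and 31.6% in Dach1OE, a difference of -1.60 points (-4.49 to 1.29). In cells with Y-linked UMIs and no Xist they were 43.3% and 31.8%, a difference of -11.5 points (-14.9 to -8.02). The gap between the libraries was thus wider in cells with Y-linked UMIs than in cells with Xist. These intervals cover the counting of cells in 1 library per genotype. Neither the gap between genotypes nor its contrast between Xist-only and Y-only cells was tested. With a pair of mice pooled per library, sex and individual animal cannot be told apart. The other 3 classes had higher shares in the Dach1OE library, at 16.0% and 18.6% for cycling cells, 14.02% and 15.91% for Col10a1-high cells and 33.7% and 35.0% for Ihh-negative cells. As a share of all kept cells, members were 5.61% (5.34 to 5.90) in Control and 5.92% (5.65 to 6.19) in Dach1OE, so against the whole library the Dach1OE value was not the lower one.

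Depth touched this share, since 1 Ihh UMI made a cell a member. With every gated cell of sufficient depth thinned to 5000 UMIs, members were 32.6% in Control and 27.0% in Dach1OE, and with at least 2 Ihh UMIs required they were 30.0% and 24.3%. The gap between the libraries was present under both. Members carried a median of 6 Ihh UMIs in Control, with a highest value of 74, and of 4 in Dach1OE, with a highest value of 70. Cells with exactly 1 Ihh UMI were 17.0% and 20% of members, and those with at least 5 were 56.4% and 49.3%. Endothelial cells, which should lack Ihh, had an Ihh UMI in 0.887% of cells in Control and 1.17% in Dach1OE at median depths of 2798 and 2793 UMIs. At a common 5000 UMIs, Ihh was found in 85.0% and 81.8% of members and in 0.747% and 1.41% of endothelial cells. Shallower cells were left out of these values. In Control 1416 of 1486 members but only 1607 of 8451 endothelial cells were deep enough.

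**Figure D1:**
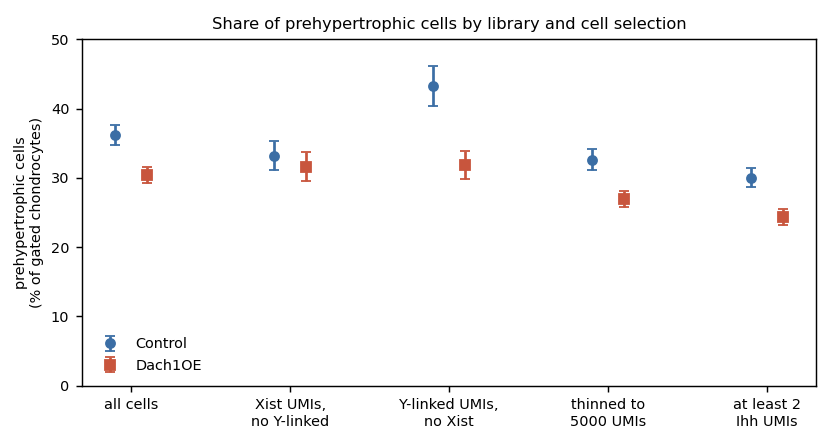
Share of gated chondrocytes (%, vertical axis) that met the prehypertrophic rule in Control (circles) and Dach1OE (squares), for all cells, for cells split by Xist and Y-linked UMIs, after thinning to 5000 UMIs and with at least 2 Ihh UMIs. Bars are 95% Clopper-Pearson intervals, and the widest gap is in the cells with Y-linked UMIs, 43.3% against 31.8%.

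Of the 4 markers, Panx3 and Smpd3 were highest in members, Ihh was higher in Col10a1-high cells, and Acan was alike in all non-cycling classes of a library. Ihh stood at 648 CPM in members of the Control library and 575 in Dach1OE, at 111 and 121 CPM in cycling cells, and at 2.81 and 3.83 CPM in endothelial cells. It was higher still in Col10a1-high cells, at 1020 and 1037 CPM, so Ihh was not confined to the cells below the Col10a1 limit. Panx3, which encodes a pannexin channel of maturing chondrocytes and osteoblasts, was at 3609 CPM in Control members and 3449 in Dach1OE members, the highest of the 4 classes in both libraries. Its levels were 2959 and 2911 in Col10a1-high cells, 1318 and 1228 in Ihh-negative cells, and 1408 and 1271 in cycling cells. Smpd3, the neutral sphingomyelinase needed for mineralization of cartilage and bone, followed the same order among the non-cycling classes. It was at 2444 and 2342 CPM in members, 1743 and 1533 in Col10a1-high cells and 1185 and 1064 in Ihh-negative cells. Acan, the main proteoglycan of cartilage, did not set members apart, with 8879 and 7452 CPM against 8451 and 7243 in Ihh-negative cells and 9040 and 8009 in Col10a1-high cells.

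**Figure D2:**
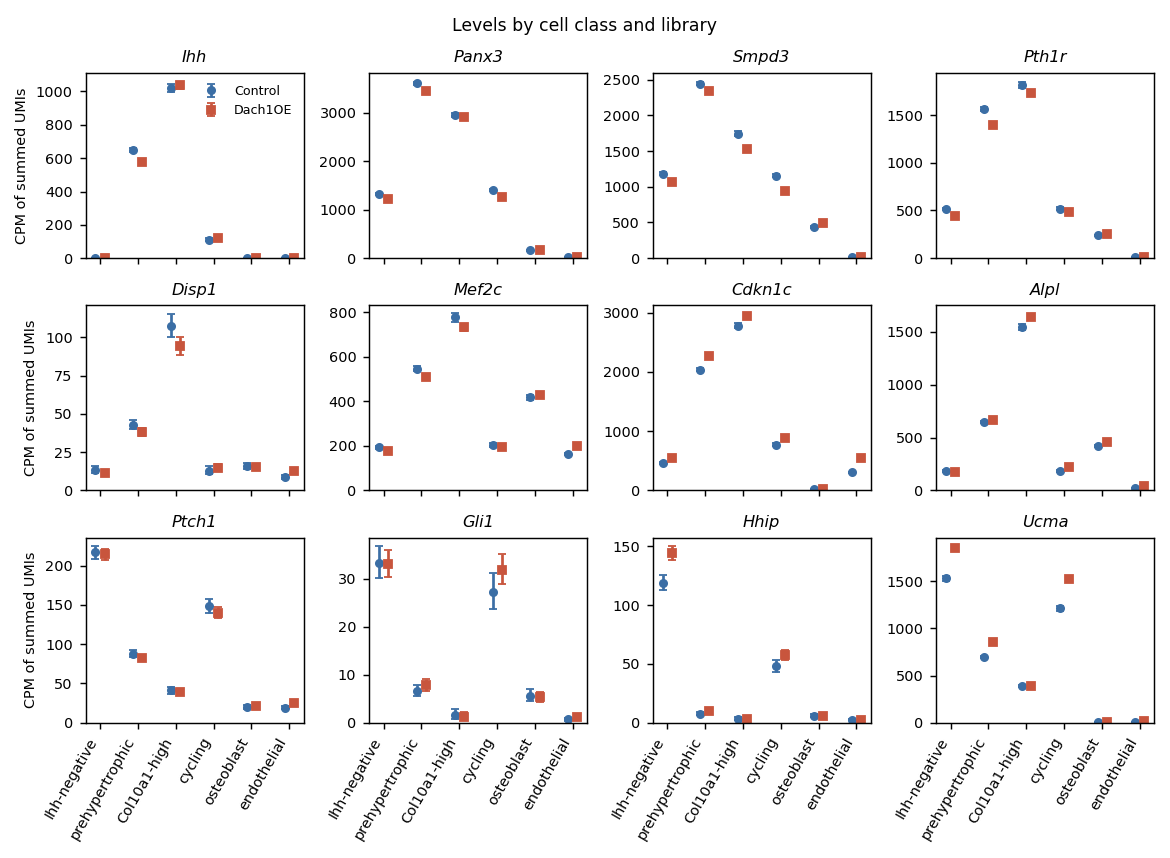
CPM of summed UMIs (vertical axes, starting at 0) of 12 genes in 4 chondrocyte classes, osteoblasts and endothelial cells, for Control (circles) and Dach1OE (squares), with exact 95% Poisson intervals. Panx3 and Smpd3 are highest in prehypertrophic cells, Ihh, Disp1, Mef2c, Cdkn1c and Alpl go on to higher levels in Col10a1-high cells, and Ptch1, Gli1, Hhip and Ucma are highest in Ihh-negative cells among the non-cycling classes.

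Against Ihh-negative cells, 211 of 13969 genes were higher in members (1.51%) and 420 were lower (3.01%). This split depended on scaling, since the median gene lay at -0.16 in Control and -0.13 in Dach1OE on the log2 scale, and with median-of-ratios scaling 289 genes were higher and 279 lower. It also moved with the cells used, with 190 higher and 216 lower in cells with at least 10000 UMIs. In Y-only cells 168 were higher and 260 lower. In the hedgehog and PTHrP list, 20 of 21 genes were measured, 3 were higher and 7 were lower. One of the 3 higher genes was Ihh itself, which the rule used, and the median ratio of the other 19 genes was -0.74 in Control and -0.60 in Dach1OE. Pth1r, the receptor for PTHrP, was at 1564 and 1397 CPM in members of Control and Dach1OE against 517 and 442 in Ihh-negative cells, log2 ratios of 1.60 and 1.66. Disp1, a transporter that releases lipid-bearing hedgehog proteins from the cell that makes them, was at 43.0 and 38.2 against 13.4 and 11.5 (1.68 and 1.74).

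The response genes of hedgehog went the other way. Ptch1, the hedgehog receptor and a target of the pathway, was at 87.7 CPM in Control members and 82.8 in Dach1OE members against 217 and 215 in Ihh-negative cells (-1.31 and -1.37). Gli1, the target transcription factor, was at 6.62 and 7.82 against 33.3 and 33.0 (-2.33 and -2.08). Hhip, a membrane protein that binds and sequesters hedgehog, was at 7.62 and 9.77 against 119 and 144 (-3.97 and -3.88), first among the lower genes when ranked by the interval bound nearest 0. Gli2 was lower by a similar amount (-2.69 and -2.40), Scube2, which helps hedgehog leave the cell surface, by less (-1.14 and -1.19), and the coreceptor Boc lay at -1.06 and -1.77. Scube2 and Boc lay close to the limit in Control and were not recomputed under the other settings. Pthlh was nearly absent from members, at 0.417 and 0.233 CPM against 6.00 and 10.1 in Ihh-negative cells (-3.85 and -5.43). Smo, the signal transducer below PTCH1, and Gli3, the mainly repressing GLI factor, were closer in level, at -0.76 and -0.56 for Smo and -0.23 and -0.21 for Gli3. The levels within members are given by Ihh UMIs as a description, since the rule used this count. In Control, cells with 1, 2 to 4, and 5 or more Ihh UMIs had Ptch1 at 142, 84.6 and 77.0 CPM and Gli1 at 15.05, 7.57 and 4.43. Hhip was at 27.8, 4.98 and 4.27, and the intervals of the upper bins overlapped. In Dach1OE Ptch1 was at 123, 96.5 and 63.4, Gli1 at 15.6, 8.73 and 4.98, and Hhip at 26.5, 8.73 and 5.24. Depth moved with these bins too, with medians of 10581.5, 11836 and 14135.5 UMIs per cell in Control, and its part in these values was not tested.

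Among 25 measured transcription factors, 3 were higher in members than in Ihh-negative cells and 1 was lower, against 1.51% and 3.01% of all genes tested. Their median was 0.12 in Control and 0.05 in Dach1OE. Mef2c, a driver of hypertrophy, was at 546 and 508 CPM against 193 and 177 (1.50 and 1.52). Foxa2 was at 65.0 and 68.4 against 21.3 and 21.6 (1.61 and 1.67), and Foxa3 at 33.3 and 25.3 against 8.92 and 7.33 (1.90 and 1.79). Both are forkhead factors of the hypertrophic programme. Hdac4, the class II deacetylase that restrains MEF2 and RUNX2, was the lower gene, at 13.6 and 9.96 against 32.5 and 24.6 (-1.26 and -1.30), and it did not pass the limit in cells with at least 10000 UMIs (-0.82 and -0.91). Sox9, the master regulator of cartilage, was at 1810 and 1638 CPM against 1376 and 1274, and Runx2, the regulator of chondrocyte maturation, at 169 and 150 against 152 and 136. Neither passed the 2-fold limit.

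The cell cycle list, which holds other genes than the rule used, had 17 of 18 genes measured, with 3 higher and 5 lower. Over all genes tested 1.51% were higher and 3.01% lower. Cdkn1c, which encodes the cyclin-dependent kinase inhibitor p57, was at 2039 CPM in Control members and 2273 in Dach1OE members against 464 and 550 in Ihh-negative cells (2.14 and 2.05). Cdkn1a (p21) was at 239 and 150 against 71.6 and 46.3 (1.74 and 1.69), and Rb1 was the other higher gene. Ccnd1 and Ccnd2, the D-type cyclins of proliferating chondrocytes, were lower, at 49.8 and 84.7 against 162 and 216 for Ccnd1 (-1.70 and -1.35) and 37.8 and 57.1 against 102 and 128 for Ccnd2 (-1.43 and -1.16). The replication genes Mcm3, Mcm5 and Hells were also lower. Cells with at least 3 of the 6 cycle genes had been left out of both classes by the rule.

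Of 11 measured genes in the upper growth plate list none was higher in members and 6 were lower, against 3.01% of all genes tested. Their median was -1.34 in Control and -1.08 in Dach1OE. Ucma, a secreted matrix protein of resting and upper columnar cells, was at 697 and 859 CPM against 1530 and 1849 (-1.14 and -1.11), and fell short of the limit with median-of-ratios scaling (-0.97 and -0.97) and in cells with at least 10000 UMIs (-0.95 and -0.90). Sfrp5, a secreted Wnt antagonist of the resting zone, was at 2.40 and 5.26 against 50.04 and 66.4 (-4.38 and -3.66). Fgfr1 was at 31.4 and 27.0 against 79.7 and 69.9 (-1.34 and -1.37), whereas Fgfr3, the FGF receptor that restrains chondrocyte proliferation, was at 748 and 758 against 622 and 608. Fgfr1, though in the upper growth plate list, was higher still in Col10a1-high cells. Of 25 cartilage matrix genes none was higher and 1 was lower (Itgbl1), and the 21 that the rule did not use had a median of 0.04 and 0.10. Col2a1, the main collagen of cartilage, was at 81130 and 84200 CPM against 82690 and 85440, a difference whose sign changed with the scaling. Hapln1, the link protein of aggrecan, was at 11340 and 11170 against 7872 and 7870.

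The secreted signals of members also differed from those of Ihh-negative cells. Of 20 genes of BMP signalling, 4 were higher and 4 lower, against 1.51% and 3.01% of all genes tested. Bmp2 was at 32.1 and 15.7 CPM against 6.51 and 3.75 (2.30 and 2.06), Bmp6 at 28.9 and 29.2 against 10.4 and 9.65 (1.47 and 1.60), and the BMP antagonist Nog at 111 and 103 against 42.4 and 35.9 (1.39 and 1.52), while Bmp7 was lower, at 29.3 and 30.8 against 77.2 and 86.7 (-1.40 and -1.50). Of 18 Wnt genes 1 was higher, Wnt4 at 62.0 and 64.0 against 26.7 and 26.2 (1.22 and 1.29), and 4 were lower, among them the transcription factor Lef1 (-2.85 and -2.71). In the IGF list 12 of 13 genes were measured and 2 were lower. H19, an imprinted growth-restraining RNA, was at 906 and 1112 CPM against 2303 and 2706 (-1.35 and -1.28), and Igfbp7 at 387 and 472 against 819 and 1042 (-1.08 and -1.14). In cells with at least 10000 UMIs neither of them passed, with -0.98 and -0.94 for H19 and -0.63 and -0.78 for Igfbp7, nor did Bmp7 in both libraries (-0.95 and -1.06).

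Genes of mineralization differed in both directions. Alpl, the tissue-nonspecific alkaline phosphatase that starts mineralization, was at 649 and 664 CPM in members against 186 and 172 in Ihh-negative cells (1.80 and 1.95). Mgp, an inhibitor of calcification, was at 1441 and 1025 against 3299 and 2265 (-1.20 and -1.14), and Ank, which exports the inhibitor pyrophosphate, lay at -1.71 and -1.67. Of the 12 measured genes of mineralization 2 were higher, Alpl and Smpd3, and 2 lower, Ank and Mgp, against 1.51% and 3.01% of all genes tested. In cells with at least 10000 UMIs Smpd3 (0.74 and 0.83) and Mgp (-0.99 and -0.74) did not pass the limit, and in Y-only cells Smpd3 lay at 0.91 in Control. Of 22 genes of hypoxia and glycolysis none passed the limit in both libraries, although Bnip3 came near, at 501 and 451 against 221 and 238 (1.18 and 0.92).

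The gene with the clearest excess in members was Sgms2, sphingomyelin synthase 2, which makes the substrate that SMPD3 cleaves. It was at 1244 CPM in Control members and 1133 in Dach1OE members against 190 and 168 in Ihh-negative cells, log2 ratios of 2.71 (2.65 to 2.77) and 2.75 (2.70 to 2.81). Its level in Col10a1-high cells was higher still, at 1522 and 1321 CPM, while in endothelial cells of Control it was 13.9. Klf2, a Krüppel-like factor, was at 620 and 376 against 140 and 84.7 (2.15 and 2.15), and Cbln2, a secreted cerebellin, at 48.1 and 63.5 against 10.5 and 12.0. The remaining genes of the 10 most clearly higher were Atf3, Cdkn1c, Arc, Baiap2l2, Rasd1, Gng4 and Mtmr7. Besides Hhip, Sfrp5, Pthlh and Lef1, the 10 most clearly lower genes were Pappa2, Scara3, Trabd2b, Lrrn1, Fam19a5 and Gdf5. Scara3, a scavenger receptor, was at 7.20 and 8.75 CPM against 79.9 and 75.1 (-3.47 and -3.10).

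**Figure D3:**
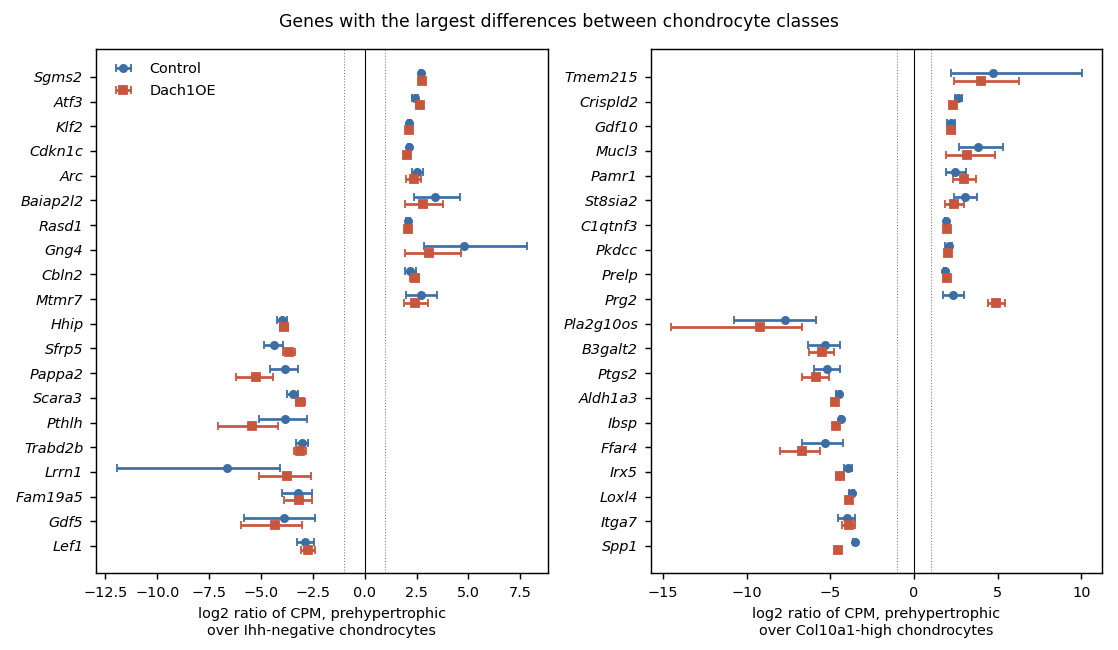
Log2 ratios of CPM (horizontal axes) of prehypertrophic over Ihh-negative cells (left) and over Col10a1-high cells (right) for the 10 genes most clearly higher and the 10 most clearly lower in each, in Control (circles) and Dach1OE (squares), with 95% intervals. Dotted lines mark 2-fold. The genes were chosen for intervals far from 0 in both libraries, so that the libraries lie on the same side in all 40 rows by this choice, with wide intervals for genes of few UMIs such as Lrrn1 and Pla2g10os. The intervals do not show UMIs held by single cells. For Prg2, on the right, 1 cell held 82.9% of the UMIs of Control members and 1 cell 40.2% of those of Dach1OE members.

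Genes known to respond to the dissociation of tissue also differed between the classes. In the list of 16 dissociation and stress genes, 8 were higher in members than in Ihh-negative cells, against 1.51% of all genes tested. The median was 1.01 in Control and 1.02 in Dach1OE. Atf3 was at 221 and 114 CPM against 40.8 and 18.2 (2.44 and 2.65), and Zfp36 at 1416 and 798 against 407 and 160 (1.80 and 2.32). The summed level of the 16 genes was 10353 CPM in Control members and 6310 in Dach1OE members, 5103 and 2973 in Ihh-negative cells, and 10347 and 7608 in Col10a1-high cells. Klf2, Arc, Cdkn1a and Bmp2, which are not in this list, were more than 2-fold higher in members than in Ihh-negative cells, and the part of dissociation in their levels was not tested.

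The marker lists of other lineages given here had lower sums in members than in cells of those lineages. The endothelial, haematopoietic, osteoblast, marrow stromal and mural cells were themselves picked by their own marker lists. Each had at least 3 of the 5 markers of its own list and of no other, and fewer than 10 Acan UMIs. The high sums of these cells for their own list follow from that choice and serve as a scale only. The 5 endothelial markers summed to 133 CPM in Control members and 124 in Dach1OE members, against 5424 and 5598 in endothelial cells, and the haematopoietic markers to 16.3 and 19.9 against 3119 and 3298. Ptprc, which encodes CD45, had 23 UMIs in all Control members and 13 in all Dach1OE members. Osteoblast markers summed to 956 and 841 CPM against 26891 and 24406 in osteoblasts, and marrow stromal markers to 288 and 173 against 41701 and 32617. At least 3 endothelial or haematopoietic markers were carried by 138 members in Control and 142 in Dach1OE. Counting the osteoblast list too, these were 606 of 1486 members in Control and 535 of 1735 in Dach1OE. The osteoblast list shares Ibsp with the hypertrophic list and Sp7 with the transcription factor list, so it does not mark osteoblasts alone. The source of these marker UMIs was not tested.

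The other border of the class is the one to hypertrophy. Against Col10a1-high cells, 285 of 13401 genes were higher in members (2.13%) and 335 were lower (2.5%), while with median-of-ratios scaling 218 were higher and 411 lower. Of the hypertrophic list 11 genes were measured. Leaving out Col10a1, which split the classes, none of the other 10 was higher in members and 6 were lower, with a median of -1.22 in Control and -1.57 in Dach1OE. Ibsp, bone sialoprotein, was at 162 and 170 CPM in members against 3338 and 4308 (-4.37 and -4.66). Spp1, osteopontin, was at 52.4 and 56.7 against 612 and 1344 (-3.55 and -4.57), and Mmp13, the collagenase of the terminal zone, at 33.1 and 45.6 against 295 and 619 (-3.15 and -3.76). Alpl, already present in members, was at 1540 and 1641 in Col10a1-high cells (-1.25 and -1.30). Vegfa, the angiogenic factor of hypertrophic cartilage, was at 74.4 and 74.4 CPM in members against 105 and 183.

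The most clearly lower genes included Aldh1a3, a retinaldehyde dehydrogenase, at 19.5 and 18.8 CPM in members against 439 and 494 in Col10a1-high cells (-4.50 and -4.71), and Ptgs2, the inducible cyclooxygenase, at 0.835 and 0.698 against 30.1 and 39.8 (-5.17 and -5.83). Loxl4, a lysyl oxidase of collagen cross-linking, was at 27.5 and 32.5 against 365 and 484 (-3.73 and -3.90), and the homeobox gene Irx5 at 7.56 and 7.58 against 116 and 164. Bmp6 was at 28.9 and 29.2 against 198 and 226 (-2.77 and -2.95), and Fgfr1 at 31.4 and 27.0 against 170 and 234 (-2.44 and -3.12), so Fgfr1 was lower in members than in the classes on either side. Bmp6 and Fgfr1 were not among the 10 most clearly lower genes. Besides Aldh1a3, Ptgs2, Loxl4 and Irx5, these were Ibsp, Spp1, Pla2g10os, B3galt2, Ffar4 and Itga7.

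In the other direction, members had more mRNA of a few genes for making and sulfating proteoglycans. Of 20 genes of sulfation and proteoglycan synthesis 2 were higher than in Col10a1-high cells, against 2.13% of all genes tested. Slc26a2, the sulfate transporter, was at 662 and 648 CPM against 270 and 258 (1.29 and 1.33), and Chst11, a chondroitin sulfotransferase, at 898 and 763 against 346 and 304 (1.37 and 1.33). Prelp, a small leucine-rich matrix protein, was at 1958 and 1696 against 549 and 429 (1.83 and 1.98), and C1qtnf3, a secreted protein of cartilage, at 1013 and 1019 against 273 and 257 (1.89 and 1.99). Crispld2 was at 172 and 164 against 27.4 and 33.4 (2.65 and 2.30), and Gdf10, a BMP family ligand, at 98.1 and 90.5 against 21.1 and 19.2 (2.21 and 2.23). Besides Prelp, C1qtnf3, Crispld2 and Gdf10, the 10 most clearly higher genes were Tmem215, Mucl3, Pamr1, St8sia2, Pkdcc and Prg2. Of the Prg2 UMIs of members, 1 cell held 82.9% in Control and 1 cell 40.2% in Dach1OE. Of the hedgehog and PTHrP list, 5 of 19 measured genes were higher in members than in Col10a1-high cells and 1 was lower. Ptch1 was among the higher ones, at 87.7 and 82.8 against 41.0 and 39.4 (1.10 and 1.07). It lay close to the limit and did not pass it under 5 of the other settings, among them median-of-ratios scaling (0.99 and 0.96), at least 2 Ihh UMIs (0.95 and 0.92) and Y-only cells (0.55 and 0.81). Disp1 was the lower one, at 43.0 and 38.2 against 108 and 94.4 (-1.32 and -1.30). Pth1r was nearly level, at 1564 and 1397 against 1815 and 1734. None of 21 secretory pathway genes passed the limit, but 19 had ratios above 0 in Control and 18 in Dach1OE, with medians of 0.36 and 0.40 against 0.12 and 0.13 over all genes tested.

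The Col10a1 limit cut a continuous range. Members were split into cells with no Col10a1 UMI, cells with under 0.1% and cells with 0.1% to under 1%, which held 785, 424 and 277 cells in Control and 768, 644 and 323 in Dach1OE, and were set beside Ihh-positive cells with 1% to under 5% and with 5% or more Col10a1. Panx3 was highest in the last bin of members in both libraries, with 3291, 3685, 4302, 3575 and 1677 CPM along the 5 bins in Control and 3104, 3447, 4177, 3891 and 1583 in Dach1OE. Ihh was higher in each bin than in the one before, from 544 to 1345 CPM in Control and from 453 to 1397 in Dach1OE. Alpl went from 494 to 1859 and from 501 to 2012, and Bmp6 from 19.1 to 336 and from 17.2 to 405. Cdkn1c was highest at 1% to under 5% Col10a1, at 3190 CPM in Control and 3660 in Dach1OE, and so was Mef2c, at 877 and 868. Prelp was lower in each bin than in the one before, from 2263 to 156 in Control and from 1996 to 125 in Dach1OE, and Chst11 went from 988 to 178 and from 831 to 147. Sox9 stayed between 1754 and 1924 CPM within members of Control and was 754 at 5% Col10a1 or more. CPM is a share of all UMIs, so Col10a1 UMIs, at least 5% in the last bin, take from the share left to other genes. Ihh was nevertheless highest in that bin, and the part of this effect in the lower values was not tested.

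**Figure D4:**
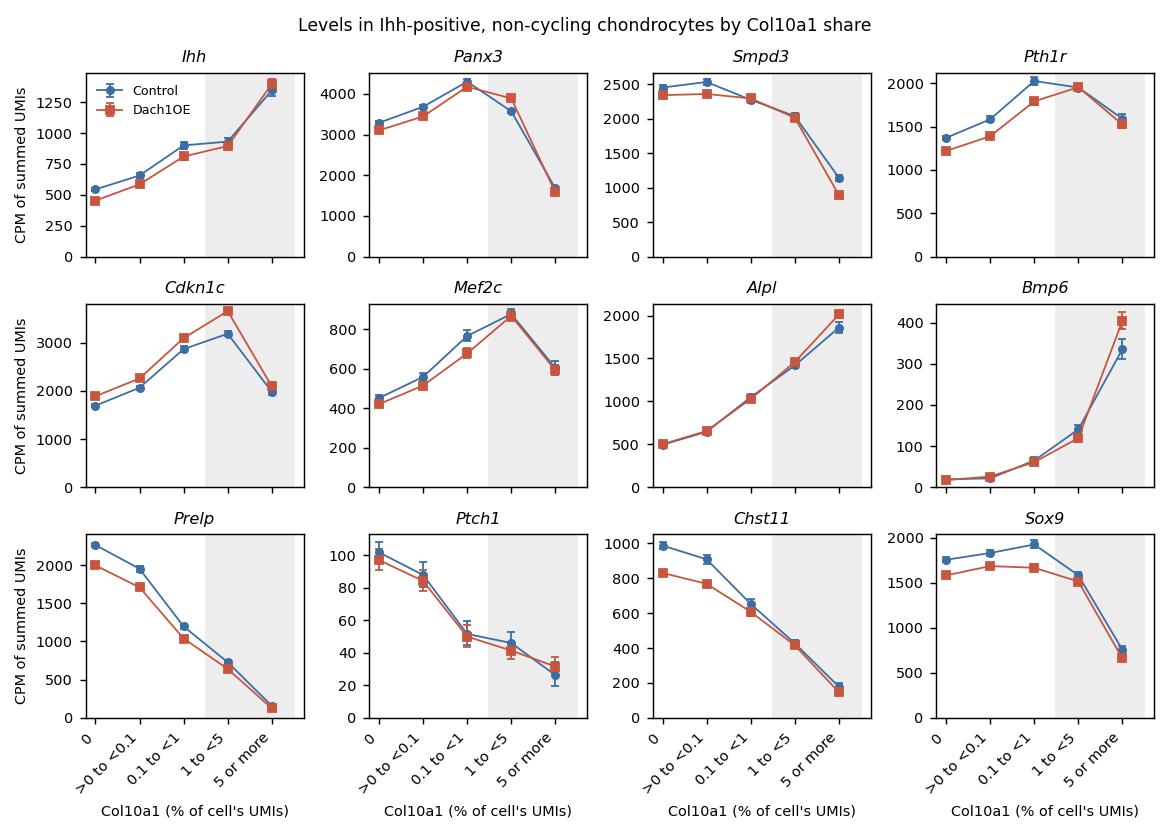
CPM of summed UMIs (vertical axes, starting at 0) of 12 genes in Ihh-positive, non-cycling chondrocytes, ordered by the percentage of a cell's UMIs from Col10a1 (horizontal axes), in Control (circles) and Dach1OE (squares), with exact 95% Poisson intervals. The shaded bins are outside the prehypertrophic rule. Panx3 peaks in the last unshaded bin, at 4302 and 4177 CPM, Alpl and Bmp6 go on upward, and Prelp and Chst11 are highest where Col10a1 was not detected.

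Panx3 was at a similar level on either side of the Col10a1 limit. With 0.8% to under 1% Col10a1 there were 31 and 48 cells with Panx3 at 4123 CPM in Control and 4318 in Dach1OE, and with 1% to under 1.2% there were 29 and 39 cells at 3761 and 4354. Few members lay at the Acan limit, 22 and 29 with 10 to 14 Acan UMIs, against 16 and 18 cells with 5 to 9 that met the other criteria. Cells with 2 of the cycle genes numbered 57 and 93, and those with 3, which were left out, 17 and 45.

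The last comparison is between the genotypes within members. In endothelial cells, where the transgene is driven, Dach1 was at 4.65 CPM in Control and 191 in Dach1OE, a log2 ratio of 5.36. In members it was at 2.14 and 4.79 CPM, or 41 and 103 UMIs in 38 and 83 cells (1.16, 0.63 to 1.72). The ratio was 0.15 without the cells with at least 3 endothelial or haematopoietic markers, -0.21 when the osteoblast list was counted too, and 0.36 in Y-only cells. The part of RNA from other cells in the Dach1 UMIs of members was not tested. Aplnr was at 12.8 and 11.4 CPM in members (-0.17, -0.43 to 0.09) and at 563 and 564 in endothelial cells.

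Of 12483 genes tested within members, 53 were more than 2-fold higher in Dach1OE (0.425%) and 149 lower (1.19%), with a median of -0.00 over all genes. Without cells with at least 3 endothelial, haematopoietic or osteoblast markers, 45 of 11117 were higher and 94 lower. In Y-only cells 45 of 10347 were higher and 73 lower. The genes that define the class had ratios near 0, and those the rule used are given as a description. Ihh was at 648 CPM in Control and 575 in Dach1OE (-0.17, -0.21 to -0.14), with a ratio of -0.26 in Xist-only cells and -0.02 in Y-only cells. Panx3 was at 3609 and 3449 (-0.07, -0.08 to -0.05), and its ratio was -0.17 in Xist-only cells and 0.05 in Y-only cells. Smpd3 lay at -0.06 and Acan at -0.25, and Acan was also lower in Ihh-negative cells (-0.22) and Col10a1-high cells (-0.17). None of 19 hedgehog and PTHrP genes passed the limit, with a median of -0.02. Pth1r was at -0.16 and Ptch1 at -0.08 (-0.18 to 0.01). None of the 22 hypoxia and glycolysis genes passed it either, with a median of 0.01, Hif1a at 0.03 (-0.04 to 0.10) and Vegfa at -0.00 (-0.10 to 0.10). In Col10a1-high cells the Vegfa ratio was 0.80 (0.68 to 0.93). Of 10 measured genes in the upper growth plate list, 2 were more than 2-fold higher in Dach1OE members, Sfrp5 and Prg4, with a list median of 0.33. Prg4, also the lubricin of articular cartilage, had 111 UMIs in Control members and 278 in Dach1OE members, of which 1 cell held 133.

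Of the gene lists, the 16 dissociation and stress genes had the lowest median ratio over all members. In subsets other lists were lower, the fibroblast and tendon markers in Xist-only cells (-1.33) and the erythroid and granulocyte markers in Y-only cells (-0.91). The marrow stromal markers were lower in Ihh-negative (-1.24) and Col10a1-high cells (-0.72). In Col10a1-high cells the fibroblast and tendon markers were lower too, at -1.52. All 16 had ratios below 0 in members, with a median of -0.83 and a range of -1.18 to -0.12, and 1 of them, Btg2, passed the 2-fold limit, at 262 and 116 CPM, though not in Xist-only cells (-0.96). The median was -0.76 in Xist-only and -0.79 in Y-only cells. It was -0.84 in Ihh-negative cells, -0.94 in cycling cells and -0.50 in Col10a1-high cells, where 14 of 16 were below 0. The median was thus below 0 in all 4 chondrocyte classes, and the list as a whole was not compared outside the gate. There the Btg2 ratio was 0.56 in endothelial, 0.43 in haematopoietic and -0.08 in marrow stromal cells. Single genes outside the list, given as examples and not as a fixed set, also had ratios below 0. Egr2 was at 33.4 and 10.5 CPM (-1.67), Arc at 57.9 and 22.9 (-1.34), and Ddit3 lay at -1.37. Bmp2 was at 32.1 and 15.7 (-1.03, and -0.68 without cells with at least 3 endothelial, haematopoietic or osteoblast markers). Cdkn1a, at 239 and 150 (-0.67), did not pass the limit. In endothelial, haematopoietic and marrow stromal cells Egr2 lay at -0.83, 0.39 and 0.28, and Arc at 0.08, -1.84 and -0.85. The marrow stromal markers, 5 genes with a median of -0.75, were the next lowest list, with summed levels of 288 and 173 CPM in members. The 5 mural markers, of the cells around vessels, were all above 0 in members, with a median of 0.80 (0.74 in Xist-only cells and 0.35 in Y-only cells, where 4 of 5 were above 0), and all below 0 in Col10a1-high cells, with a median of -0.45. Their summed levels were 102 and 178 CPM in members, 70.1 and 184 in Ihh-negative cells and 106 and 81.3 in Col10a1-high cells. The part of dissociation and of stromal and mural RNA in these differences was not tested, and the time from death to lysis of each library is not given in the sources used here.

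Ccnd1 went the other way, at 49.8 CPM in Control members and 84.7 in Dach1OE members (0.77, 0.65 to 0.88), with 0.70 in Xist-only and 1.01 in Y-only cells. It was also higher in Ihh-negative cells (0.42) and in endothelial cells (1.46). Ccnd2 was at 37.8 and 57.1 (0.60, 0.46 to 0.73), Cdkn1c at 2039 and 2273 (0.16) and Ucma at 697 and 859 (0.30). None of these passed 2-fold over all members.

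**Figure D5:**
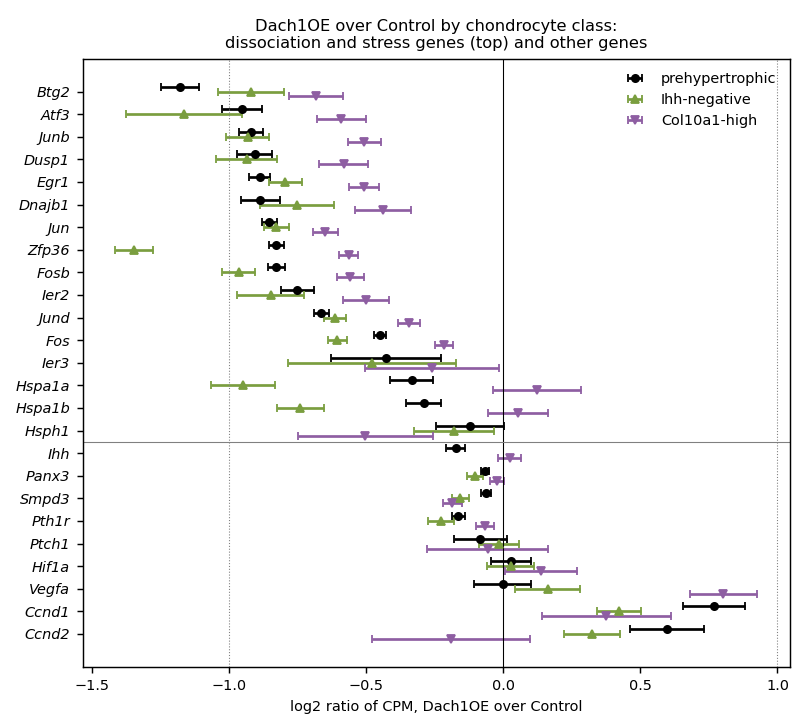
Log2 ratio of CPM, Dach1OE over Control (horizontal axis), in prehypertrophic (circles), Ihh-negative (upward triangles) and Col10a1-high cells (downward triangles), with 95% intervals that cover counting error only, for the 16 dissociation and stress genes above the line and 9 other genes below it. In prehypertrophic cells all 16 lie left of 0, Hif1a and Vegfa near 0 and Ccnd1 and Ccnd2 to the right, and in Col10a1-high cells Vegfa lies at 0.80.

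Most genes past the limit had a higher level in a cell class outside the chondrocyte gate, as did most genes tested. Of the 53 higher genes 50 (94.3%), and of the 149 lower genes 119 (79.9%), had a higher CPM in endothelial, haematopoietic, osteoblast, marrow stromal or mural cells than in members, against 84.7% of all genes tested. For this, the highest of these classes in each library was averaged over the libraries and set against the average in members. The most clearly higher genes in both Xist-only and Y-only cells were Scgb3a1, Hbb-bh1, Prg2, Mmp9, Clic5, Gja4, Olfr558, Mpo, Ccl3 and Aoc3. Hbb-bh1 had 0 UMIs in Control members, so its ratio rests on the floor of 3 counts, and 77 UMIs in 77 Dach1OE members. Among Dach1OE members 1 cell held 34.4% of the Clic5 UMIs and 1 cell 33.1% of the Mpo UMIs. Scgb3a1, a secretoglobin, had 10 UMIs in Control members and 253 in Dach1OE members (4.50) and lay at 5.02 in endothelial cells. Prg2, an eosinophil granule protein, had 339 and 2198 UMIs, of which 1 cell held 82.9% in Control and 1 cell 40.2% in Dach1OE, and 1 cell held 62 of the 123 Mmp9 UMIs of Control members. The most clearly lower genes were Cxcl9, Dnase1l3, Gpm6a, Car5a, Plin4, Gdf15, Cd36, Egr2, Tnmd and Bglap3. In Control members 1 cell held 100 of the 151 Cxcl9 UMIs (66.2%) and 1 cell 44 of the 102 Tnmd UMIs (43.1%). Of the lower genes, Dnase1l3 (-3.04), Gpm6a (-2.74) and Cd36 (-1.74) were also lower in endothelial cells, by -2.45, -2.58 and -1.76. The Cd36 ratio in members was -0.92 without the cells with at least 3 endothelial or haematopoietic markers. Car5a, at 8.50 and 1.44 CPM, was lower in members (-2.56), Ihh-negative cells (-2.62), Col10a1-high cells (-2.38) and endothelial cells (-2.80) alike. The part of free RNA or of captured neighbouring cells in these differences was not tested.

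The genes past the limit with no higher level in these other cell types numbered 3 among the higher genes, Sfrp5 (1.13, and 0.79 in Xist-only cells), Evpl and Nme5, and 30 among the lower ones. Fxyd3, a regulator of the sodium pump, had the most UMIs of the 30 and was singled out after its values were seen. It was at 609 CPM in Control members and 301 in Dach1OE members, or 11672 and 6460 UMIs in 1341 and 1266 cells (-1.02, -1.06 to -0.97). The ratio was -1.06 in Xist-only and, short of the limit, -0.91 in Y-only cells, -1.59 in Ihh-negative cells (245 and 81.5 CPM) and -0.63 in Col10a1-high cells (1099 and 711 CPM). In the cell classes outside the gate its highest CPM, averaged over the libraries, was 6.15. Fxyd3 lies at chr7:31068172-31076704 on the minus strand. Mucl3 was at 12.0 and 4.42 CPM (-1.45), and Socs1, a suppressor of cytokine signalling, lay at -1.02.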

How the data were processed

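Single cells of the femur and tibia were captured and sequenced on the BD Rhapsody platform, 1 library per genotype. Per the file headers, the deposited values are UMI counts per gene and cell, which the authors obtained from version 1.11 of the BD Rhapsody WTA Analysis Pipeline on mouse GRCm38, with sequencing and PCR errors of the identifiers corrected, and not normalized. All cells of a table belong to 1 sample. From these counts, cells with 500 to 6000 genes and under 25% mitochondrial UMIs were kept and classed by the limits given in the text. No doublet caller was run, and cells with markers of other lineages were instead left out as an alternative.

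UMIs were summed per class and library in Python 3.11.15 with numpy 2.4.6, pandas 2.3.3 and scipy 1.17.1, and genes with at least 50 UMIs in all in a comparison were held against the 2-fold limit. No p-value was computed. Ratios against a 0 were computed at a floor of 3 counts. The named genes are the markers, the members of fixed lists and, per comparison and direction, the 10 genes whose interval bound nearest 0 was farthest from 0 in both libraries, or, between genotypes, in cells of either sex, leaving out mitochondrial, ribosomal and unnamed genes. Members and lists were chosen with earlier results of these data known. The scripts were tested on simulated data.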

Additional observations from a re-analysis of the deposited data

Results flagged for a closer look

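Among the listed and named genes, 12 had ratios of opposite sign in the groups compared, with intervals that excluded 0 on either side. A gene was kept only if both log2 ratios were past 0.5 in size or it was recomputed under the other settings. The 12 are therefore not a count over all genes tested. None of these differences was tested, since each group is 1 library or part of one and the intervals cover counting error only.

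Between prehypertrophic and Ihh-negative cells, 2 genes changed sign between the libraries. Mmp13, the collagenase of terminal chondrocytes, had a log2 ratio of -0.95 in Control and 0.39 in Dach1OE, a difference of 1.34. The Dach1OE ratio was below 0, as in Control, without cells with at least 3 endothelial, haematopoietic or osteoblast markers (-0.14) and in Y-only cells (-0.34), and 1 cell held 197 of the 980 Mmp13 UMIs of Dach1OE members. The hemoglobin gene Hbb-bs, a sign of red cell RNA, lay at -0.90 and 0.86, a difference of 1.76, on 25 to 58 UMIs per class and library. Between prehypertrophic and Col10a1-high cells, the hedgehog coreceptor Gas1 lay at -1.35 in Control and 1.44 in Dach1OE, a difference of 2.80. Prg4, the lubricin of articular cartilage, lay at -3.11 and 2.54, a difference of 5.65, and 1 cell held 252 of the 358 Prg4 UMIs of the Control Col10a1-high cells. The other genes of this comparison were Igfbp5 with a difference of 1.10, Notch3 with 1.07, Thbs4 with 1.47 and Vcan with 1.66. Their ratios were below 0 in Control and above 0 in Dach1OE, and in the Control Col10a1-high cells 1 cell held 54 of the 98 Thbs4 UMIs (55.1%) and 29 of the 97 Gas1 UMIs were in 1 cell.

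Between genotypes within prehypertrophic cells, 4 genes changed sign between Xist-only and Y-only cells. Each library pooled a pair of mice, so sex and individual animal cannot be told apart. Cytl1, a secreted cytokine-like protein of cartilage, was higher in Dach1OE among Xist-only cells (0.88) and lower among Y-only cells (-1.91), a difference of -2.78, and 1 cell held 124 of the 498 Cytl1 UMIs of Control members. Igf1 lay at 0.56 and -0.58, a difference of -1.14, and Smad7, an inhibitor of TGF-beta and BMP signalling, at 0.51 and -0.51, a difference of -1.01. Panx3 lay at -0.17 and 0.05, a difference of 0.22.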

How the results depend on the processing

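The lower share of prehypertrophic cells among gated chondrocytes in Dach1OE kept its direction under every setting tried, and the shares themselves moved with the limits. They were 32.6% in Control and 27.0% in Dach1OE after thinning to 5000 UMIs, 30.0% and 24.3% with at least 2 Ihh UMIs, 34.1% and 28.3% with Col10a1 under 0.5%, 32.2% and 28.3% without cells with at least 3 endothelial, haematopoietic or osteoblast markers, and 47.7% and 41.3% in cells with at least 10000 UMIs. With at least 20 Acan UMIs the Dach1OE share was 31.7%. In Xist-only cells the shares were 33.2% and 31.6% (difference -1.60 points, -4.49 to 1.29) and in Y-only cells 43.3% and 31.8% (-11.5 points). As a share of all kept cells the direction was the other one, at 5.61% in Control and 5.92% in Dach1OE.

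Against Ihh-negative cells, 343 genes were higher and 723 lower with no filter on low counts, and the lower genes numbered 279 with median-of-ratios scaling, 216 in cells with at least 10000 UMIs and 260 in Y-only cells. Against Col10a1-high cells 787 were lower with no filter. Between genotypes, 177 genes were higher and 361 lower with a limit of 20 UMIs, 831 and 1920 with no filter, and 94 were lower without cells with at least 3 markers of the other lineages and 73 in Y-only cells. Settings with a lower or no limit on UMIs hold more genes, and those with fewer cells hold fewer, and otherwise the cause was not tested.

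Among single genes, Dach1 reversed between genotypes, at -0.21 without cells with at least 3 markers of the other lineages. Of the genes recomputed under these settings that were past the 2-fold limit, 7 of 38 against Ihh-negative cells, 1 of 23 against Col10a1-high cells and 6 of 18 between genotypes did not pass it under at least 1 setting, and these are given beside their results. Of 1300 values against Ihh-negative cells 9 changed sign, of 806 against Col10a1-high cells none did, and of 546 between genotypes 12 did, the genes being Col2a1 and Mmp13 in the first and Panx3, Ptch1, Dach1, Aplnr, Hif1a and Vegfa in the last. The settings without cells with endothelial or haematopoietic markers, and the shares at 10000 UMIs, were added after seeing the data. No paired analysis was possible because each genotype is 1 library. With 1 library of pooled mice per genotype, every difference between genotypes may be one between libraries, and genes of few UMIs are limited by depth.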

Other observations

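Wnt, FGF and protease genes added some detail at the border to hypertrophy. Of 18 Wnt genes, 2 were more than 2-fold higher in prehypertrophic than in Col10a1-high cells in both libraries and 4 were lower, against 2.13% and 2.5% of all genes tested in this comparison. Frzb, a secreted Wnt antagonist, was at 73.8 CPM in Control and 58.4 in Dach1OE against 185 and 190 (-1.33 and -1.70), and Axin2, a target of Wnt signalling, at 2.92 and 2.65 against 8.12 and 8.70 (-1.47 and -1.71). Notum, which inactivates Wnt ligands, was higher, at 10.8 and 9.91 against 3.78 and 2.32 (1.51 and 2.10), and lower than in Ihh-negative cells, at 57.0 and 31.9 (-2.40 and -1.69), so its level lay between those of the neighbouring classes.

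Of 15 measured proteases and inhibitors, 3 were lower in prehypertrophic than in Col10a1-high cells, Mmp13, Adamts1 and Timp3. Adamts1, an aggrecanase of the ADAMTS family, was at 28.1 and 23.6 CPM against 108 and 93.6 (-1.94 and -1.99), and at 11.4 and 11.5 in Ihh-negative cells. Timp3, a matrix-bound inhibitor of these enzymes, was at 186 and 149 against 646 and 659 (-1.80 and -2.14). Of 14 measured FGF genes 1 was higher and 2 lower, beside the same shares over all genes. Fgfr3 was at 748 and 758 CPM against 534 and 530 and did not pass the limit.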
